A study of Mus musculus with 12 samples.

Results

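Cadherins are calcium-dependent adhesion molecules of the cell surface, and 39 genes of the family were followed through the development of the mouse cerebral cortex: the classical cadherins of type I and type II, the GPI-anchored Cdh13, the tip link cadherins, the non-clustered protocadherins, the flamingo (Celsr) genes and the Fat and Dachsous giants. The members were chosen by name, from gene identifiers in the count tables translated to symbols. They are 39 of 50600 identifiers counted. A low-count filter left 17847 genes to be tested, 38 of the 39 among them. Cdh19, a cadherin of crest-derived glia, failed it with 52 reads over all 12 libraries and is given as levels only.

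Poly(A) RNA was sequenced from the cortex of untreated C57BL/6 mice at 4 ages, embryonic day 11 (E11), E13, E17 and postnatal day 1 (P1). Each library held the cortex of a single embryo or pup, and the 3 libraries of an age, lettered A, B and C, came from different litters. No group carried a genotype or a treatment, so age was what the study compared. Whole cortex was taken, which means that a change in RNA per cell and a change in the share of a cell type cannot be told apart in any value below.

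Classical cadherins bind their own kind across the cell gap and are tied to actin inside the cell by catenins. In the embryonic cortex N-cadherin, the product of Cdh2, holds the apical junctions of the ventricular zone, and type II cadherins mark areas, layers and later synaptic partners. Flamingo genes act in planar polarity and axon guidance, Fat and Dachsous proteins bind each other across cells, and the delta-protocadherins adhere weakly and signal to the cytoskeleton.

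The libraries held between 28173745 and 45858712 gene counts. The cortical markers Emx1, Emx2, Lhx2, Tbr1 and Pax6 were present at every age, at a summed 1100 to 1320 CPM (counts per 1e6, scaled by edgeR's TMM factors) at E11 and E13 and 422 to 654 CPM at E17 and P1. Summed levels of 8 neuron markers went from 1180 to 1380 CPM at E11 to 10000 to 10400 CPM at P1, and those of 7 progenitor markers from 3890 to 4180 CPM down to 373 to 431 CPM. Markers of tissue around the cortex were present early. The 8 meningeal fibroblast genes summed to 1180 to 1430 CPM at E11 and 802 to 1100 CPM at E13. They summed to 14.1 to 16.4 CPM at E17 and 14.2 to 56.1 CPM at P1, the 56.1 CPM being P1 A. Choroid plexus markers summed to 86.2 to 258 CPM at E11 and 1.11 to 1.52 CPM at P1. Between the same ages thalamus markers went from 64.4 to 70.9 CPM down to 2.39 to 4.77 CPM. Erythroid genes went from 5740 to 16500 CPM down to 45.5 to 83.9 CPM. Ventral telencephalic and interneuron markers summed to 44.7 CPM in E11 C against 7.2 and 3.89 CPM in E11 A and B, and to 58.5 CPM in E13 C against 16.8 and 25.3 CPM in E13 A and B. E13 C also held the least choroid plexus signal of its age, 38.6 CPM against 377 and 332 CPM, and E17 A the most striatal marker signal, 54.1 CPM against 17.1 and 33.1 CPM. The part of these differences in the results below was not tested, and results were recomputed without E17 A, E13 C and E11 C.

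The changes of the cadherin genes with age ran mainly upward. Across the 4 ages 37 of the 38 tested members passed an adjusted p of 0.05 (edgeR's quasi-likelihood test, Benjamini-Hochberg over all tested genes), where 90.2% of all tested genes did so. Cdh22, a type II cadherin, was the exception at an adjusted p of 0.102. Between E11 and P1, 25 members rose and 7 fell, against backgrounds of 40.5% and 41.8% (82.3% in either direction, near the 84.2% of the members called). The median log2 fold change over the 38 members was 1.64, against -0.04 over all tested genes. At least 4-fold rises were called for 19 members, where 15.4% of all tested genes rose that far, and at least 4-fold falls for 3 (Cdh3, Celsr1 and Pcdh18), where 9.48% did.

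The timing was uneven. From E11 to E13, 21 members rose and 4 fell (backgrounds 22.6% and 17.5%, together 40.1%), with a median log2 fold change of 0.44 against 0 for all genes; with upper-quartile scaling the split was 18 higher and 7 lower. From E13 to E17, 23 rose and 9 fell (backgrounds 36.8% and 37%, together 73.8%), with a median of 0.93 against -0.04. From E17 to P1, 11 rose and 8 fell, a total of 19 of 38, at the background of 49.9% (24% and 25.9%), with a median of 0.1 against 0. The heatmap of levels by library shows the largest shift between E13 and E17. The plot of fold changes by step shows the widest span there, from -4.8 to 4.5. Among the successive steps this one also had the most calls over all tested genes, and the ages are not evenly spaced. Called members were 65.8% at E13 against E11 (all tested genes 40.1%) and 84.2% at E17 against E13 (73.8%).

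**Figure D1:**
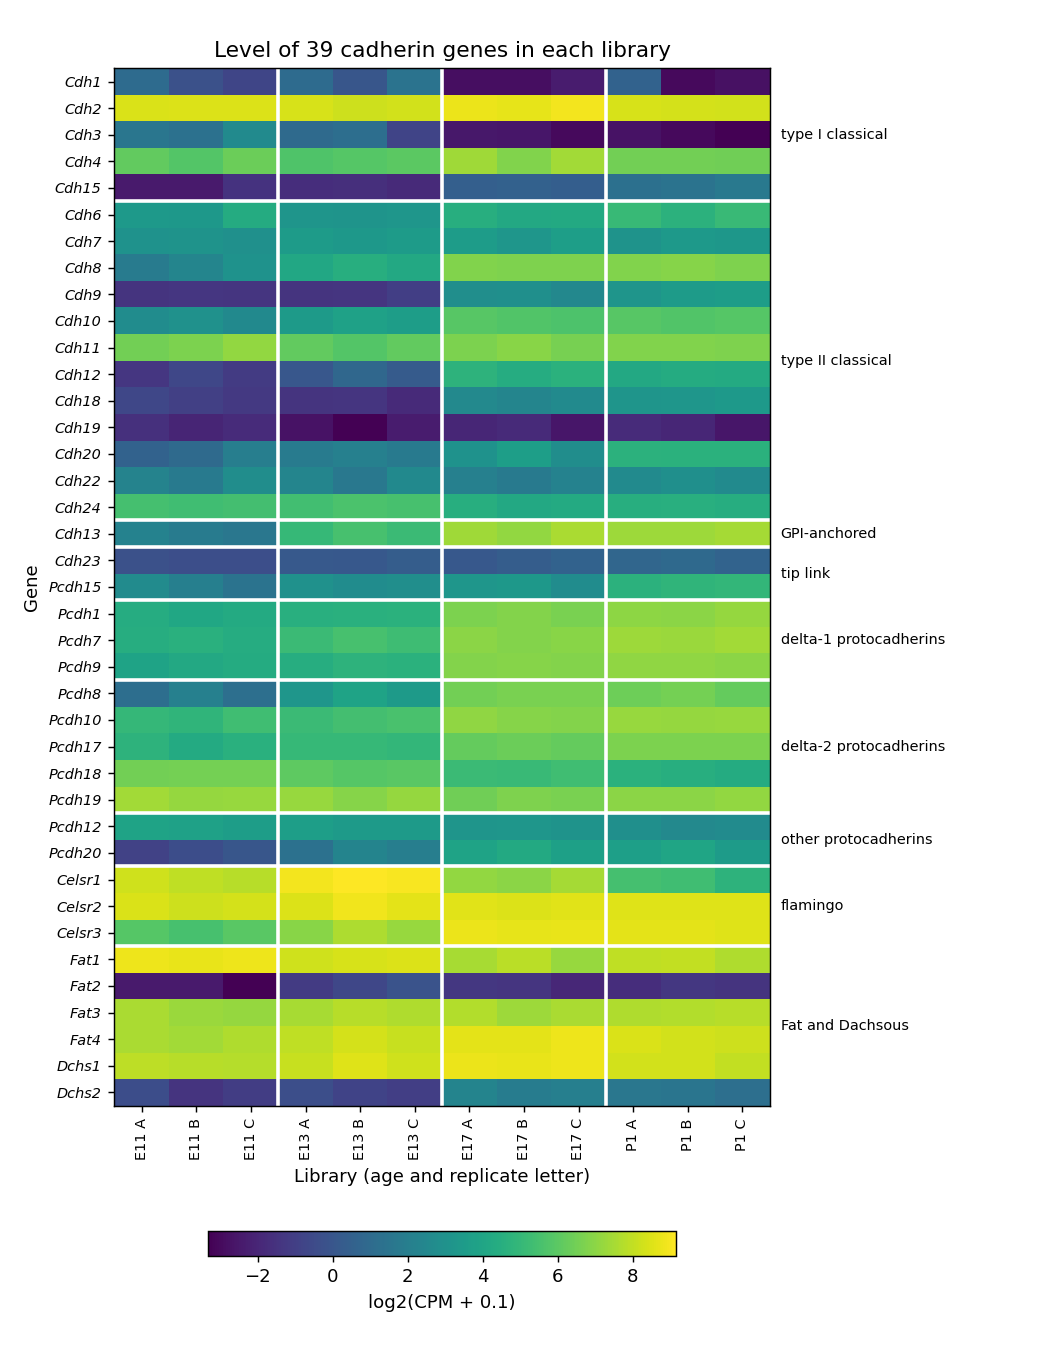
Level of each of the 39 genes (rows, grouped by subfamily) in each of the 12 libraries (columns, 3 per age), as log2(CPM + 0.1). Cdh9, Cdh12, Cdh13 and Pcdh8 turn from dark to light between E11 and E17, Celsr1 and Pcdh18 darken toward P1, and Cdh1 is dark at E17 and in P1 B and C but not in P1 A.

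**Figure D2:**
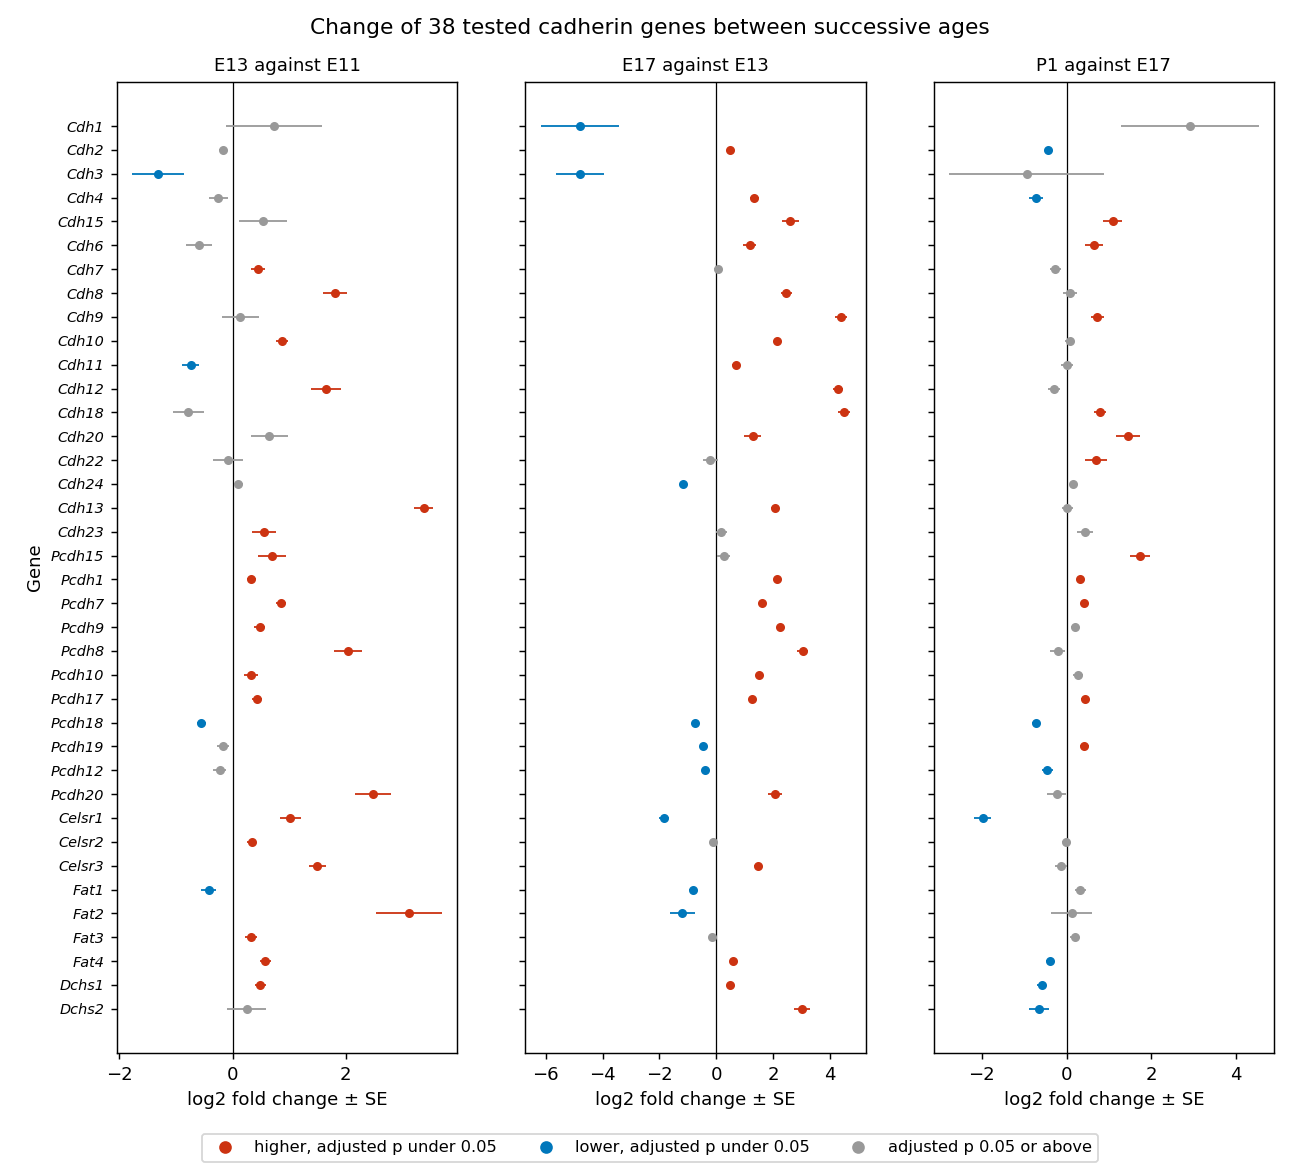
Log2 fold change with its standard error for the 38 tested genes in the 3 successive comparisons, each panel on its own axis, coloured by direction where the adjusted p was under 0.05. At E13 21 genes were higher and 4 lower, at E17 23 and 9, and at P1 11 and 8.

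Among the type I cadherins, Cdh2 ranked first in the family per kb of exon at E11, E17 and P1, though not by CPM at E11 and P1. Both Cdh2 and Cdh4 peaked at E17. Cdh2 was measured at 350, 356 and 366 CPM at E11, 336, 298 and 318 at E13, 436, 414 and 485 at E17, and 339, 332 and 313 at P1. Every E17 library lay above every library of the other ages. The rise from E13 to E17 was 0.49 ± 0.07 on the log2 scale (± SE here and below, 3 libraries per age; adjusted p = 1.46e-05) and the fall to P1 was -0.44 ± 0.07 (adjusted p = 0.000129). The E13 values lay below those of E11, but the difference of -0.17 ± 0.07 missed the threshold (adjusted p = 0.0562). Over all runs without 1 library the difference ranged from -0.21 to -0.12, with adjusted p-values up to 0.195. It passed without E13 A, E17 C or P1 C, at adjusted p-values of 0.0321 to 0.0494. It also passed with RLE, upper-quartile or library-size scaling, the filter at 1 CPM, DESeq2, limma-voom, or the 2 ages alone, at 0.0195 to 0.0492, so that this step lies at the threshold.

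Cdh4 encodes R-cadherin, a close relative that can pair with N-cadherin. Its levels were 71.4, 55.4 and 82.2 CPM at E11, 53.5, 57.6 and 64.1 at E13, 164, 109 and 170 at E17, and 91.9, 92 and 86.2 at P1. All E17 libraries were again the highest, E17 B the lowest of them. Cdh4 rose by 1.34 ± 0.17 from E13 to E17 (adjusted p = 2.24e-05) and changed by -0.72 ± 0.17 to P1 (adjusted p = 0.00434). P1 against E11 gave 0.37 ± 0.17 (adjusted p = 0.0598), which passed without E11 C or E17 B at 0.0109 to 0.0203. With RLE scaling, the letters as a replicate block, DESeq2, or the 2 ages alone it passed at 0.0145 to 0.0417. This comparison thus lies at the threshold. Cdh2, Cdh4, Dchs1, Dchs2 and Fat4 were the 5 members that rose at E17 and fell at P1, a course that 6.14% of all tested genes took.

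The epithelial cadherins fell to a few reads at E17. Cdh3 (P-cadherin) was at 2.89, 2.39 and 6.11 CPM at E11, 1.88, 2.16 and 0.494 at E13, 0.0757, 0.0716 and 0.0234 at E17, and 0.0532, 0.0258 and 0 at P1. E11 C was the highest library and E13 C the lowest of its age, and no E17 or P1 library reached the level of any earlier one. The step from E13 to E17 was -4.78 ± 0.84 (adjusted p = 0.000216). At P1 3 reads remained against 371 at E11, a ratio of 147 with a 95% interval of 50.1 to 718 that covers counting error only. The smaller fall to E13 (-1.31 ± 0.46, adjusted p = 0.0394) was -0.39 (adjusted p = 0.344) without E17 A, E13 C and E11 C, and missed the threshold without E11 C, E13 A, E13 C, E17 A, E17 B or P1 B, at adjusted p-values of 0.0526 to 0.177.

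Cdh1, the E-cadherin of epithelia, was at 1.95, 0.766 and 0.509 CPM at E11, 1.98, 0.898 and 2.56 at E13, 0.0379, 0.0358 and 0.0938 at E17, and 1.41, 0.0258 and 0.0477 at P1. E17 lay below every earlier library, on 6 reads in all, and P1 A stood apart from P1 B and C. Cdh1 fell from E13 to E17 by 4.8 on the log2 scale (SE 1.37, adjusted p = 0.00795), or by 5.48 without E17 C. Without E17 A, E13 C and E11 C the value was -4.3 (adjusted p = 0.0737). P1 against E11 was -1.16 ± 0.97 (adjusted p = 0.284) with all libraries and -4.71 (adjusted p = 0.000565) without P1 A, and P1 against E17 turned from 2.91 ± 1.62 (adjusted p = 0.154) to -0.65. Keratins and Epcam, taken as surface epithelium markers, summed to 8.85 to 12.7 CPM at E11, 2.34 to 6.21 at E13, 0.328 to 0.573 at E17 and 0.358 to 0.464 at P1, P1 A holding 0.373 CPM. Meningeal fibroblast markers in P1 A were at 56.1 CPM against 14.2 and 16 CPM in P1 B and C. The part of either tissue in the Cdh1 and Cdh3 values was not tested.

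Cdh15, the M-cadherin of muscle, went the other way from a very low level. Its values were 0.0886, 0.0884 and 0.255 CPM at E11, 0.212, 0.224 and 0.185 at E13, 1.25, 1.36 and 1.22 at E17, and 2.34, 2.6 and 3.17 at P1. E17 and P1 did not overlap with each other or with the earlier ages. Cdh15 rose by 2.6 ± 0.3 at E17 (adjusted p = 2.82e-06) and by 1.09 ± 0.22 at P1 (adjusted p = 0.00118), and its rise from E11 to P1 of 4.22 ± 0.3 was 4.88 without E11 C. The 4 skeletal muscle markers, of which 1 passed the filter, summed to 0.147 to 0.223 CPM at E11 and 0.14 to 0.185 CPM at E13. At E17 they summed to 0.833 to 1.4 CPM and at P1 to 3.41 to 4.56 CPM. Myod1 and Myog were at 0 in all E11 libraries, Myog and Ckm in all E13 libraries, and Ckm in all E17 libraries. Their part in the Cdh15 values was not tested.

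The type II cadherins made up the largest subfamily, and 8 of 11 tested members rose from E13 to E17 while 1 fell (all tested genes 36.8% and 37%). At the earlier step 4 rose and 1 fell (22.6% and 17.5%), and at the last 5 rose (24%). From E11 to P1 7 rose and 1 fell (40.5% and 41.8%), with a median log2 fold change over the 11 of 3.09. Cdh6, Cdh9, Cdh10, Cdh12 and Cdh18 lie along mouse chromosome 15, and all 5 rose from E13 to E17. Their promoters are printed here because these members rose together in that interval, and that of Pcdh18 because it was the only member to fall at all 3 steps. The sequences are from RefSeq (GRCm38.p6), 250 bases before and 50 after the annotated start, on the gene's strand from 5′ to 3′, with each CpG in capitals. They span chr15:13173626-13173925 (Cdh6, minus strand), chr15:16728665-16728964 (Cdh9, plus), chr15:18820079-18820378 (Cdh10, plus), chr15:21111202-21111501 (Cdh12, plus), chr15:23036213-23036512 (Cdh18, plus) and chr3:49757267-49757566 (Pcdh18, minus).
Cdh6: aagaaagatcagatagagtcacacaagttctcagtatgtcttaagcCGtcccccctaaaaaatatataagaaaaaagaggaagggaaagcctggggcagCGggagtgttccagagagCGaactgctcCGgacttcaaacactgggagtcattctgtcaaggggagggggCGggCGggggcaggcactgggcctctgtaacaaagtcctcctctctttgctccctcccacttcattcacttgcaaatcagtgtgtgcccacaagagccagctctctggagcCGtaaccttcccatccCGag
Cdh9: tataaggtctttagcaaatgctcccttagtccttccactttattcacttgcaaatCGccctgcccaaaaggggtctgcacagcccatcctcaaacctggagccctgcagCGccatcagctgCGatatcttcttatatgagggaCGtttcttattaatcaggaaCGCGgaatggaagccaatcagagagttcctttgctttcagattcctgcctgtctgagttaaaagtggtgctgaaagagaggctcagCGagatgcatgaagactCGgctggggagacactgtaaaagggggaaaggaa
Cdh10: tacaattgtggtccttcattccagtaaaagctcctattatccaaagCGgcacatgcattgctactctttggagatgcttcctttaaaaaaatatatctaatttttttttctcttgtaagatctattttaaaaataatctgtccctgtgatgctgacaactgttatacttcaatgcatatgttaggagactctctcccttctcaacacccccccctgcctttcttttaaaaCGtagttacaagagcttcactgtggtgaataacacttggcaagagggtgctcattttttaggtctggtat
Cdh12: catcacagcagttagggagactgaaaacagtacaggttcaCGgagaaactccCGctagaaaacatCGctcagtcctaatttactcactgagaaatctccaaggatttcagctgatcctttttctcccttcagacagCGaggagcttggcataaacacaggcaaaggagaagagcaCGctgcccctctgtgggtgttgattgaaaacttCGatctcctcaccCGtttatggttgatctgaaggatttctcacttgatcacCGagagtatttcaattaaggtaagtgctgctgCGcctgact
Cdh18: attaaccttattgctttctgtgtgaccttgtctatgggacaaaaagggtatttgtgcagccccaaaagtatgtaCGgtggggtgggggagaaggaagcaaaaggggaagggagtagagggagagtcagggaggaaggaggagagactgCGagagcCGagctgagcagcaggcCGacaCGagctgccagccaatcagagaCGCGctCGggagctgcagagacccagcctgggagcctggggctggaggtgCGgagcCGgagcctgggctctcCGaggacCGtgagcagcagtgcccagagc
Pcdh18: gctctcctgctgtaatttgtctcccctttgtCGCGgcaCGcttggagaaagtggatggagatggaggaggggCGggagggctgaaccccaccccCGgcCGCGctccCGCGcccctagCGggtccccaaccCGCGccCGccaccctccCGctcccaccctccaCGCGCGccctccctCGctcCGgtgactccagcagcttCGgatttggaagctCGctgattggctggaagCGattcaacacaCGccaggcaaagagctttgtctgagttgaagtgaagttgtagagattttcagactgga
The chromosome 15 promoters held fewer CpGs than the median cadherin promoter: 8 in Cdh6, 8 in Cdh9, 2 in Cdh10, 9 in Cdh12 and 12 in Cdh18, where Pcdh18 held 23. Over 32817 mouse promoters of the same length the quartiles were 3, 7 and 20 CpGs, and over the 31 promoters found for 28 of the 39 cadherin genes the median was 18, from 2 to 40. The E-box CACCTG, searched on both strands, is the form bound by ZEB and Snail repressors. It was found in 7 of the 31 cadherin promoters (22.6%) and in 20.2% of all promoters, and in none of the 6 printed here. Several of the 7 were alternative promoters of Cdh7. Cdh1, Cdh2, Cdh3 and Cdh4 had no promoter among the 31, so the E-cadherin gene was not searched. CAGATG, an E-box form used by NeuroD and neurogenin factors, was in 3 of 31 (9.68%) against 17.2%, and also in none of the 6. These counts describe letters in a window and nothing about binding.

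Cdh9, known from matched hippocampal synapses, was barely detected before E17. It was at 0.266, 0.295 and 0.286 CPM at E11, 0.264, 0.281 and 0.401 at E13, 6.97, 7.41 and 5.48 at E17, and 8.94, 11.5 and 12.3 at P1. E11 and E13 overlapped, and the later ages stood clear of them and of each other. Cdh9 rose by 4.38 ± 0.22 at E17 (adjusted p = 5.06e-10) and by 0.73 ± 0.15 at P1 (adjusted p = 0.00142).

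Cdh18 followed the same course, at 0.531, 0.412 and 0.318 CPM, then 0.264, 0.281 and 0.185, then 5.72, 4.94 and 6.21, and 9.1, 9.4 and 10.7 CPM at P1. Its E13 libraries were the lowest of all. The E13 value was -0.78 ± 0.28 relative to E11 (adjusted p = 0.0629, and 0.0415 without E11 C), and the rises to E17 and P1 were 4.5 ± 0.21 (adjusted p = 2.76e-10) and 0.79 ± 0.14 (adjusted p = 0.000509).

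Cdh12, a brain cadherin, started earlier and stopped at E17. It was at 0.295, 0.53 and 0.35 CPM at E11, 0.952, 1.68 and 1.08 at E13, 26.3, 20.8 and 24.9 at E17, and 18.7, 20.4 and 20 at P1. Each age to E17 lay above the one before. The first rise was 1.65 ± 0.27 (adjusted p = 0.000345) and the second 4.28 ± 0.18 (adjusted p = 1.3e-10). The last step was -0.29 ± 0.14 (adjusted p = 0.109), which passed without E13 B at 0.0398. From E11 to P1 Cdh12 rose 49.7-fold.

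Cdh8, a type II cadherin with areal and laminar expression in cortex, also climbed in the first 2 steps. Its values were 3.57, 5.04 and 8.12 CPM at E11, 17.5, 22.8 and 18.1 at E13, 109, 107 and 106 at E17, and 112, 120 and 107 at P1. Its E17 libraries differed little from one another and overlapped with P1. Cdh8 rose by 1.81 ± 0.21 (adjusted p = 6.48e-05) and 2.46 ± 0.19 (adjusted p = 2.61e-07), with 0.08 ± 0.17 at the last step (adjusted p = 0.742). Cdh10 had the same shape at lower amplitude, from 5.92 to 7.81 CPM at E11 to 50.2 to 60.1 CPM at E17 and 54.8 to 59.6 CPM at P1, with rises of 0.87 ± 0.11 and 2.15 ± 0.11.

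Cdh20 and Cdh6 went on rising after E17. Cdh20 was at 1.42, 1.89 and 3.92 CPM at E11, 3.6, 4.27 and 3.36 at E13, 8.25, 12.6 and 6.77 at E17, and 25.5, 24.7 and 24.8 at P1. Its P1 libraries were close together and above all others. Cdh20 rose by 1.29 ± 0.3 (adjusted p = 0.00212) and 1.45 ± 0.28 (adjusted p = 0.00118), and its first step of 0.65 ± 0.33 (adjusted p = 0.142) reached an adjusted p of 0.00491 without E11 C. Oligodendrocyte lineage markers, which moved in the same direction, summed to 25.3 to 49 CPM at E11 and E13, 81 to 140 CPM at E17 and 264 to 289 CPM at P1, and their part in the Cdh20 values was not tested.

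Cdh6, which marks a compartment boundary of the early forebrain, was at 10.7, 9.9 and 20.2 CPM at E11, 9.04, 8.56 and 9.22 at E13, 22.9, 18.6 and 19 at E17, and 33.5, 26 and 35.1 at P1. E11 C lay within the range of the E17 libraries and P1 above all of them. Its E17 rise was 1.17 ± 0.23 (adjusted p = 0.000692) and its P1 rise 0.65 ± 0.22 (adjusted p = 0.0305). The P1 rise was lost without E17 B, E17 C, P1 A or P1 C, at adjusted p-values of 0.072 to 0.098. E13 against E11 was -0.6 ± 0.23 (adjusted p = 0.0605). This difference passed without E11 A or E11 B at 0.0194 to 0.0359. Over all runs without 1 library it ranged from -0.79 to -0.21, with adjusted p-values up to 0.262.

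Cdh11 dipped at E13 and returned. This cadherin of mesenchyme and neurons was at 91.6, 103 and 140 CPM at E11, 72, 56.7 and 71.5 at E13, 105, 122 and 96.3 at E17, and 110, 110 and 106 at P1. All E13 libraries were below those of every other age, and E11, E17 and P1 overlapped. Cdh11 fell by 0.74 on the log2 scale (SE 0.15, adjusted p = 0.0021), rose by 0.69 ± 0.15 (adjusted p = 0.00118), and at P1 differed from E11 by -0.04 ± 0.15 (adjusted p = 0.814).

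Cdh24 was the only type II cadherin to fall from E13 to E17. It was at 44.1, 40.3 and 43.4 CPM at E11, 41.5, 49.2 and 45.9 at E13, 22.3, 18.6 and 19.5 at E17, and 22.2, 23.2 and 22 at P1. All E11 and E13 libraries lay above all E17 and P1 libraries, with a step of -1.18 ± 0.08 (adjusted p = 1.33e-08). At P1 against E17 it gave 0.16 ± 0.08 (adjusted p = 0.119, and 0.0272 without E17 A). The remaining type II genes stayed low. Cdh7 ran from 7.51 to 12.8 CPM over all libraries and rose at E13 (0.45 ± 0.13, adjusted p = 0.0133), a call lost when E17 A, E13 C and E11 C were left out together (0.36, adjusted p = 0.14). Cdh7 at P1 passed against E17 without E17 B (adjusted p = 0.017) and against E11 without P1 A (adjusted p = 0.0381). Cdh22 ran from 3.09 to 7.26 CPM and rose at P1 (0.69 ± 0.26, adjusted p = 0.0403), which did not hold without any one of 8 libraries, E11 A, E13 A or any E17 or P1 library, at adjusted p-values of 0.0512 to 0.124. Cdh22 at P1 passed against E11 without E11 C (adjusted p = 0.0188). Cdh19 was never above 0.236 CPM and was at 0 in E13 B.

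Cdh13, or T-cadherin, is held to the membrane by a lipid anchor instead of a cytoplasmic tail. It was at 4.49, 3.59 and 3.02 CPM at E11, 33.2, 46.3 and 36.6 at E13, 165, 139 and 188 at E17, and 162, 161 and 175 at P1. E11, E13 and E17 were fully separated, and P1 overlapped with E17. Cdh13 rose by 3.38 ± 0.17 at E13 (adjusted p = 1.21e-07), the highest log2 fold change among the members in that step, and by 2.08 ± 0.14 at E17 (adjusted p = 4.28e-08). Its share of the family's RNA per kb of exon went from 0.129% to 3.95%. The panels of CPM by library show this early start beside the later onset of Cdh9 and Cdh18.

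**Figure D3:**
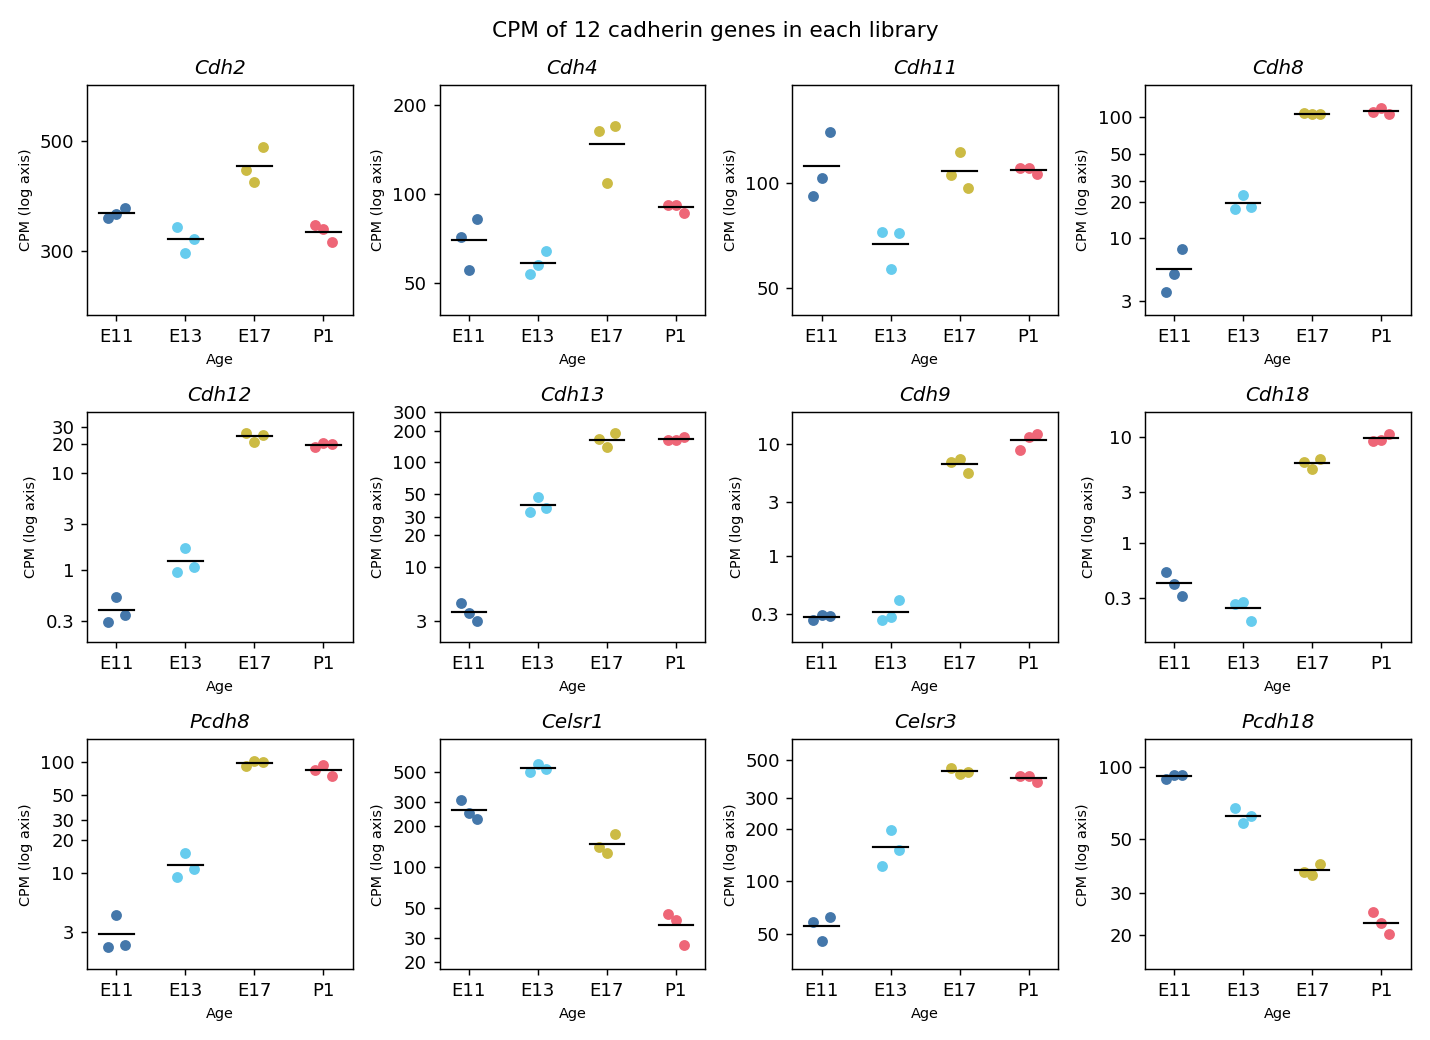
CPM on a log axis for 12 of the genes, with 1 point per library and a bar at the mean of each age (3 libraries). Cdh2 and Cdh4 peak at E17, Cdh11 dips at E13, Cdh8, Cdh12, Cdh13 and Pcdh8 climb by E17, Cdh9 and Cdh18 are under 1 CPM at E11 and E13, and Celsr1 and Pcdh18 are lowest at P1.

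The tip link cadherins Cdh23 and Pcdh15 are known for joining the stereocilia of inner ear hair cells. Pcdh15 was at 6.41, 4.15 and 2.61 CPM at E11, 7.75, 6.71 and 7 at E13, 9.31, 9.88 and 6.63 at E17, and 26.1, 28.8 and 30.2 at P1. P1 lay clear of the other ages, which were close or overlapping. The P1 step was 1.73 ± 0.23 (adjusted p = 9.1e-05). All 4 oligodendrocyte lineage markers rose at the same step, from a summed mean of 114 to 279 CPM, and their part in the Pcdh15 values was not tested. The E13 step of 0.7 ± 0.25 (adjusted p = 0.0421) was lost without any one of 9 libraries (all except E11 A, E17 B and E17 C), at adjusted p-values of 0.0564 to 0.113. Cdh23 stayed between 0.7 and 1.83 CPM and rose from E11 to P1 by 1.18 ± 0.2 (adjusted p = 7.86e-05). Its E13 call (0.56 ± 0.21, adjusted p = 0.0464) was lost without any one library other than E17 A or E17 C, at 0.0556 to 0.137, and its P1 step (0.44 ± 0.19, adjusted p = 0.0647) passed without E17 C at 0.038. Of 8 genes for other proteins of the hair cell transduction apparatus, 6 were tested. From E11 to P1 5 rose and 1 fell (all tested genes 40.5% and 41.8%). The largest rises, both from very low levels, were those of Lhfpl5, from 0.0991 to 3.66 CPM (5.14 ± 0.28), and Tmie, from 0.0884 to 0.93 CPM (3.31 ± 0.52).

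All 3 delta-1 protocadherins rose at each of the first 2 steps. Pcdh1 was at 21, 17.3 and 19.7 CPM at E11, 23.5, 23.9 and 25.4 at E13, 105, 116 and 101 at E17, and 132, 127 and 144 at P1. Each age was above the one before with no overlap. The 3 steps were 0.33 ± 0.08, 2.14 ± 0.08 and 0.32 ± 0.07 (adjusted p = 0.00542, 4.15e-11 and 0.00238), the first of them at 0.31 (adjusted p = 0.0547) when E17 A, E13 C and E11 C were left out together.

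Pcdh7 behaved alike, at 21.8, 24.4 and 21.4 CPM, then 36.8, 46.7 and 38.2, then 129, 116 and 124, and 160, 158 and 172 CPM at P1. No 2 ages overlapped, and the steps were 0.85 ± 0.09, 1.6 ± 0.08 and 0.41 ± 0.08 (adjusted p = 7.58e-06, 1.05e-09 and 0.000973). Pcdh9 ran from 14.9 to 20.3 CPM at E11, 21.7 to 27.1 at E13, 115 to 117 at E17 and 126 to 138 at P1. Its first 2 steps were called (0.48 ± 0.1 and 2.23 ± 0.1), and the last, 0.2 ± 0.09, was not (adjusted p = 0.0914, and 0.039 without E11 A), although the ages did not overlap. Pcdh1, Pcdh7 and the delta-2 gene Pcdh17 were the 3 members that rose at all 3 steps, as 6.17% of all tested genes did.

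The delta-2 protocadherins split into 3 that rose and 2 that fell between E11 and P1. Pcdh8, known as arcadlin at synapses, was at 2.16, 4.18 and 2.26 CPM at E11, 9.25, 15.2 and 11 at E13, 91, 101 and 100 at E17, and 84.4, 94 and 75 at P1. No overlap was seen among E11, E13 and E17, whereas P1 overlapped with E17. It rose by 2.04 ± 0.25 (adjusted p = 7.88e-05) and 3.04 ± 0.2 (adjusted p = 8.82e-08).

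Pcdh17, which takes part in axon extension and synapse development, was at 26.7, 19.9 and 24 CPM at E11, 32.3, 32.4 and 30.7 at E13, 73.2, 82.6 and 73.6 at E17, and 102, 104 and 103 at P1. Its ages were ordered without overlap, by steps of 0.43 ± 0.09, 1.26 ± 0.09 and 0.43 ± 0.08 (adjusted p = 0.00153, 1.12e-08 and 0.000728). Pcdh10 ran from 28.8 to 40.2 CPM at E11 to 114 to 134 at E17 and 143 to 150 at P1. Its rise at E17 was 1.52 ± 0.12 (adjusted p = 1.01e-07). The E13 call of Pcdh10 (0.33 ± 0.12, adjusted p = 0.0412) was lost without any one of 8 libraries, all except E11 C, E13 A, E17 A and E17 C, at adjusted p-values of 0.0503 to 0.157. The P1 step of Pcdh10 (0.27 ± 0.11, adjusted p = 0.0603) passed without E11 B, E11 C, E13 A or E17 A, at 0.018 to 0.0412.

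Pcdh18, which binds the reelin adaptor Dab1, was the only member to fall at all 3 steps, as 4.68% of all tested genes did. It was at 89.5, 93.4 and 93 CPM at E11, 67.4, 58.6 and 62.4 at E13, 36.4, 35.6 and 39.5 at E17, and 24.9, 22.3 and 20.1 at P1. No 2 ages overlapped. The steps were -0.55 ± 0.08, -0.75 ± 0.08 and -0.73 ± 0.08 (adjusted p = 8.02e-05, 8.12e-07 and 1.04e-05). Of 7 progenitor markers, 2 fell and 5 were not called at E13, all 7 fell at E17, and 5 fell at P1. All tested genes fell at 17.5%, 37% and 25.9% in these steps. Of 8 meningeal fibroblast markers, 2 rose and 1 fell at E13, all 8 fell at E17, and all 8 were not called at P1. The part of either group in the Pcdh18 values was not tested.

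Pcdh19, the X-linked gene of an epilepsy of girls, dipped at E17 instead. It was at 170, 145 and 148 CPM at E11, 148, 118 and 145 at E13, 87.5, 107 and 100 at E17, and 127, 125 and 142 at P1. Every E17 library was below all others. It fell by 0.48 on the log2 scale (SE 0.1, adjusted p = 0.000711) and rose by 0.42 ± 0.1 (adjusted p = 0.00367). The net change from E11 of -0.24 ± 0.1 (adjusted p = 0.0407) was lost without E11 A, E17 C, P1 A or P1 B, at adjusted p-values of 0.053 to 0.178. Sex was not among the labels used here.

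The protocadherins outside the delta groups went opposite ways. Pcdh20, which helps to place layer 4 neurons, was at 0.443, 0.678 and 0.923 CPM at E11, 2.46, 4.91 and 4.01 at E13, 14.8, 19.3 and 13.7 at E17, and 13.1, 16.2 and 11.4 at P1. It rose by 2.48 ± 0.32 (adjusted p = 7.82e-05) and 2.07 ± 0.24 (adjusted p = 6.39e-06), and P1 overlapped with E17. Pcdh12, a protocadherin of endothelium, was at 15.1, 13.8 and 12.2 CPM at E11, 12.8, 11.2 and 11.1 at E13, 8.86, 9.31 and 8.51 at E17, and 7.43, 5.82 and 6.32 at P1. It fell by 1.07 on the log2 scale between E11 and P1 (SE 0.11, adjusted p = 8.28e-07), with no overlap. Cdh5, the VE-cadherin of endothelial junctions and not one of the 39, went from a mean of 68.5 to 18.3 CPM in the same interval (-1.9 ± 0.12, adjusted p = 3.17e-09). Another 5 endothelial markers summed to 101 to 126 CPM at E11 and 96.6 to 118 CPM at P1. In that interval 1 of these 5 rose, 2 fell and 2 were not called (all tested genes 40.5% higher and 41.8% lower).

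The 3 flamingo genes took 3 separate courses. Celsr1, which sets planar polarity in epithelia, was at 309, 250 and 224 CPM at E11, 494, 571 and 523 at E13, 141, 127 and 175 at E17, and 45.2, 40.7 and 26.8 at P1. All 4 ages were separate, with the peak at E13. The steps were 1.02 ± 0.19 (adjusted p = 0.00149), -1.84 ± 0.19 (adjusted p = 5.16e-06) and -1.98 ± 0.2 (adjusted p = 1.83e-05).

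Celsr3, needed for the main forebrain axon tracts, was at 58.2, 45.5 and 62.2 CPM at E11, 123, 197 and 151 at E13, 450, 417 and 426 at E17, and 405, 404 and 374 at P1. It was low early and high late, with every E17 library above every P1 library. The rises were 1.5 ± 0.15 (adjusted p = 1.93e-05) and 1.46 ± 0.15 (adjusted p = 3.21e-06), and the last step was -0.13 ± 0.15 (adjusted p = 0.498). Celsr2 stayed high throughout, from 297 to 469 CPM over all libraries. It rose at E13 (0.34 ± 0.08, adjusted p = 0.00551). Its E17 step of -0.12 ± 0.08 (adjusted p = 0.2) passed without E13 A (adjusted p = 0.0268) and with library size as the only scaling (-0.31, adjusted p = 0.00347). P1 against E11 for Celsr2 (0.21 ± 0.08, adjusted p = 0.0356) was lost without E11 B, E11 C or P1 A, at adjusted p-values of 0.0546 to 0.146, and was -0.02 with library size alone.

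A ratio of genes within a library does not depend on the scaling. Per kb of exon, the Celsr3 to Celsr1 ratio was 0.172, 0.166 and 0.254 at E11, 0.226, 0.316 and 0.263 at E13, 2.91, 2.99 and 2.22 at E17, and 8.16, 9.05 and 12.7 at P1. Celsr1 was thus the more abundant of the pair in all 6 libraries of the first 2 ages and Celsr3 in all 6 of the last 2. The exact 2-sided permutation p for 3 libraries against 3 was 0.2 for E13 against E11 and 0.1, the smallest this design allows, at the later steps. These ratios, shown in the plot of 4 gene pairs, were picked after their values had been seen.

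**Figure D4:**
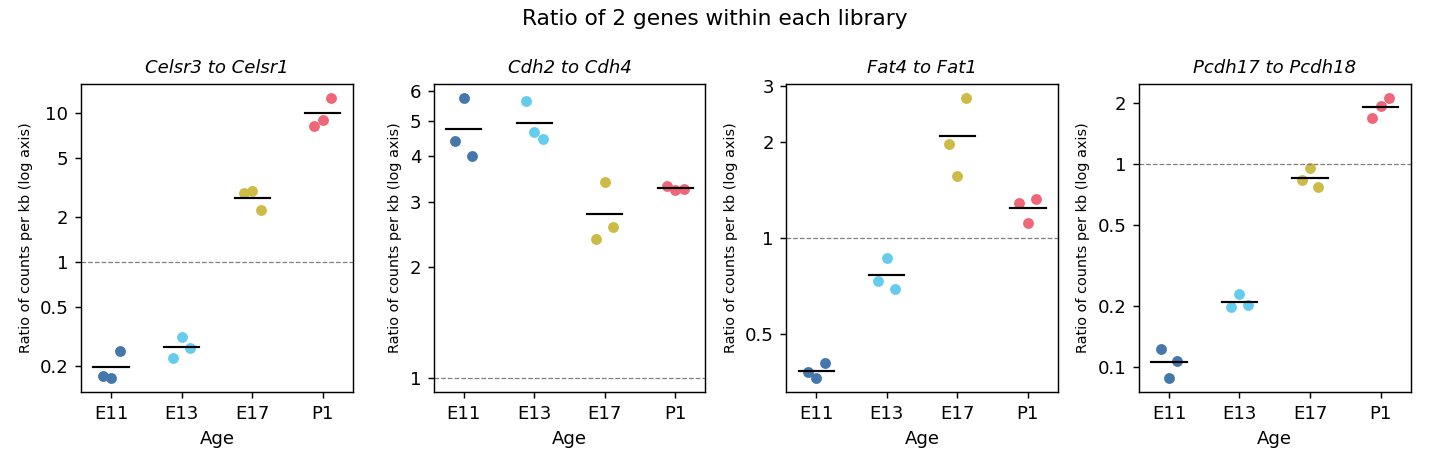
Ratio of 2 genes' counts per kb of exon within each library, on a log axis, with 1 point per library and a bar at the mean. Celsr3 to Celsr1 passes 1 between E13 and E17, as does Fat4 to Fat1, Pcdh17 to Pcdh18 does so between E17 and P1, and Cdh2 to Cdh4 stays above 1 with its lowest mean, 2.79, at E17.

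Fat1 and Fat4 also exchanged places. Fat1, an atypical cadherin that regulates actin, was at 464, 424 and 454 CPM at E11, 307, 339 and 361 at E13, 185, 232 and 152 at E17, and 247, 257 and 204 at P1. From E11 to E17 the ages went down in order without overlap. The E17 fall was -0.82 ± 0.13 (adjusted p = 0.00013). The E13 fall (-0.42 ± 0.13, adjusted p = 0.0263) was lost without E11 A, E11 C, E13 A or E13 B, at adjusted p-values of 0.0611 to 0.0889. The P1 step (0.32 ± 0.13, adjusted p = 0.0678) passed without E17 B or P1 C, at 0.00325 to 0.0256.

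Fat4 and Dchs1 encode a receptor and its ligand, and loss of either disturbs cortical progenitors and neuron migration. Fat4 was at 193, 170 and 203 CPM at E11, 247, 322 and 274 at E13, 399, 399 and 462 at E17, and 349, 317 and 298 at P1. Its E17 libraries were the highest. It rose by 0.58 ± 0.1 at E13 (adjusted p = 0.00072) and 0.58 ± 0.1 at E17 (adjusted p = 0.000192), and the P1 fall of -0.39 ± 0.1 (adjusted p = 0.00707) was at 0.0508 without P1 C.

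Dchs1 was at 241, 224 and 220 CPM at E11, 280, 372 and 309 at E13, 445, 422 and 463 at E17, and 311, 311 and 260 at P1. It too was highest in all E17 libraries, while E13 and P1 overlapped. The steps were 0.49 ± 0.1 (adjusted p = 0.00159), 0.47 ± 0.1 (adjusted p = 0.000682) and -0.59 ± 0.1 (adjusted p = 0.000275). The Fat4 to Fat1 ratio per kb was 0.384 ± 0.0215 at E11, 0.765 ± 0.0916 at E13, 2.1 ± 0.61 at E17 and 1.25 ± 0.111 at P1 (mean ± SD, n = 3 each; exact permutation p = 0.1 at each step).

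Of the other Fat and Dachsous genes, Dchs2 was at 0.679, 0.265 and 0.382 CPM at E11, 0.687, 0.477 and 0.401 at E13, 4.88, 3.72 and 4.08 at E17, and 3.03, 2.81 and 2.22 at P1. It was scarce early, highest at E17 and lower in every P1 library. Dchs2 rose by 3 ± 0.28 (adjusted p = 3e-07). Its P1 fall of -0.65 ± 0.23 (adjusted p = 0.0314) was lost without E17 A, E17 C, P1 B or P1 C, at adjusted p-values of 0.0623 to 0.139. Fat3 ran from 147 to 226 CPM over all libraries and rose from E11 to P1 (0.39 ± 0.11, adjusted p = 0.00543). The E13 step of Fat3 (0.33 ± 0.11, adjusted p = 0.0296) was lost without E11 B, E11 C, E13 B or E13 C, at 0.0638 to 0.127. Fat2, best known from cerebellar granule cells, had 118 reads in all. It was at 0.0886, 0.0884 and 0 CPM at E11 and 0.344, 0.533 and 0.802 at E13, 9.06 times as much by summed reads (95% interval 3.92 to 25.7, counting error only). The call at E13 gave 3.12 ± 0.58 (adjusted p = 0.000734), or 2.26 without E17 A, E13 C and E11 C, and the E17 fall of Fat2 (-1.19 ± 0.44, adjusted p = 0.0253) was lost without E13 C or E17 C, at 0.123 to 0.126.

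Length-corrected levels allow the genes to be ranked against one another. Summed over the 39 genes, CPM per kb of exon was 256 ± 11.7 at E11, 299 ± 18.2 at E13, 406 ± 12.6 at E17 and 375 ± 10 at P1 (mean ± SD, n = 3 each). Cdh2 ranked first at E11, E17 and P1, with 44.3, 55.2 and 40.7 CPM per kb, and Celsr1 at E13 with 48.1, ahead of Cdh2 at 39.4. At P1 Celsr3 and Celsr2, at 32.7 and 32.3 CPM per kb, followed Cdh2, and their levels do not separate beyond the spread of their libraries. Celsr1 went from rank 1 at E13 to rank 24 at P1, and Pcdh8 from rank 26 at E11 to rank 6 at E17.

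Part of some genes' exon length is shared with a transcript on the other strand, and the strand setting of the counting is not given in the sources used here. By GENCODE M21 this was 21.1% of Pcdh7, 12% of Dchs2, 9.6% of Pcdh8, 8.7% of Fat4, 6.3% of Cdh9, 5.9% of Dchs1 and 3.1% of Fat1, and 3.1% of Cdh12 is shared on its own strand, so reads of these stretches are uncertain.

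The make-up of the family shifted with these moves. Flamingo genes held 22% of the summed CPM per kb at E11, 32.2% at E13, 20.1% at E17 and 18.2% at P1. The delta-1 protocadherins went from 2.72% ± 0.182 at E11 to 13.4% ± 0.569 at P1, and the Fat and Dachsous genes from 26.5% ± 0.638 to 18.8% ± 0.928 (SD, n = 3 each). Type I cadherins went from 21.5% to 14.4% and type II from 12% to 15.9%. The stacked shares show the flamingo bulge at E13 and the growth of the delta-1 band.

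**Figure D5:**
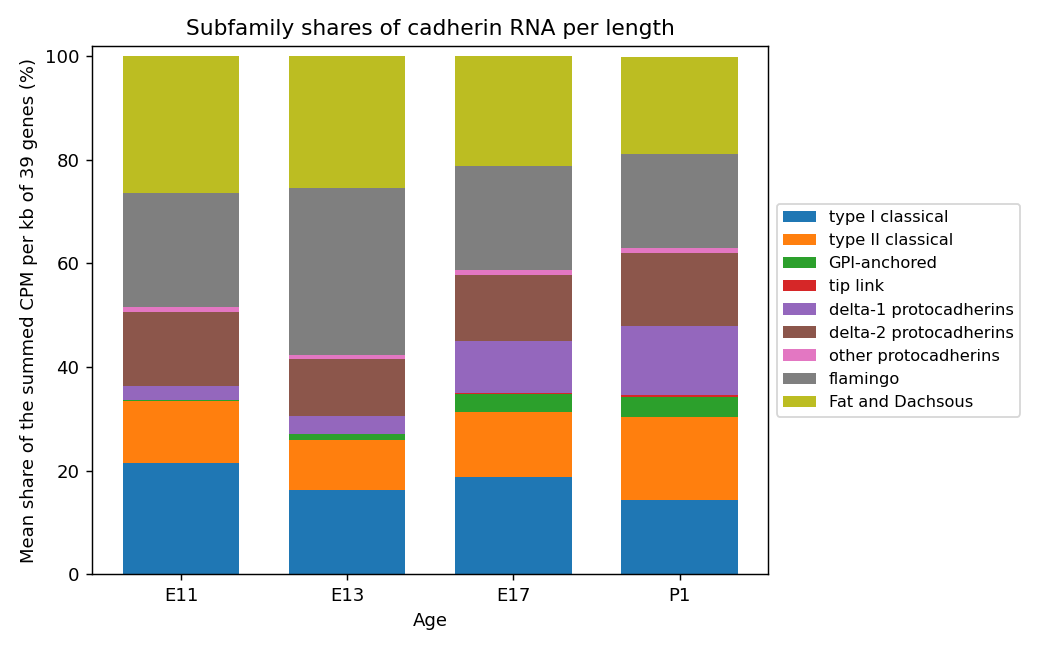
Share of each subfamily in the summed CPM per kb of exon of the 39 genes, as the mean of 3 libraries at each age (stacked bars from 0 to 100%). The flamingo share is highest at E13, 32.2%, and the delta-1 share grows from 2.72% at E11 to 13.4% at P1.

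Genes that work with cadherins were listed by function and counted in the same way. From E11 to P1, the interval of all counts given here, 40.5% of all tested genes rose and 41.8% fell. Among the catenins, the link from classical cadherins to actin, 6 of 7 were tested, of which 3 rose and 3 fell, a split near that of all genes. The epithelial alpha-catenin Ctnna1 went from a mean of 277 CPM to 53.8 CPM (-2.36 ± 0.07, adjusted p = 1.08e-12) while the neural alpha-catenin Ctnna2 went from 54.3 to 314 CPM (2.53 ± 0.07, adjusted p = 9.56e-13). Ctnnd2, a neuronal delta-catenin, went from 43.2 to 340 CPM (2.98 ± 0.09), and Ctnnb1, beta-catenin, from 1600 to 886 CPM (-0.85 ± 0.06). Of 7 nectin, afadin and other junction genes 3 rose and 4 fell, Nectin3 (-1.42 ± 0.1) and Tjp1 (-1.38 ± 0.06) most of all.

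Of 10 partners of the flamingo genes in planar polarity 4 rose and 5 fell, near the shares of all tested genes (40.5% and 41.8%). Prickle2 and Prickle1 rose by 4.02 ± 0.09 and 2.71 ± 0.12, to means of 132 and 56.1 CPM, and Vangl2 and Fzd3 fell by 1.36 and 1.26 on the log2 scale (SE 0.1 and 0.08). The WAVE complex, an actin regulator that Pcdh10, Pcdh17 and Pcdh19 can recruit, had 7 of 9 genes higher and 2 lower (background 40.5% and 41.8%). Cyfip2 and Wasf1 rose by 2.1 ± 0.08 and 1.87 ± 0.06, and their relatives Cyfip1 and Wasf2 fell by 0.62 and 1.53 (SE 0.05 and 0.06). Of 6 genes of the proteases that cleave cadherins 2 rose and 1 fell.

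The transcriptional repressors of E-cadherin did not move as one group, and 4 of 5 fell from E11 to P1. Twist1 and Snai2 fell by 5.19 and 3.42 on the log2 scale (SE 0.36 and 0.4), from means of 4.14 and 3.37 CPM. Zeb2 rose, from a mean of 72.8 CPM at E11 to 221 at E13 and 627 at E17, and was at 416 CPM at P1 (2.51 ± 0.12, adjusted p = 4.32e-10, for P1 against E11). Among 16 further superfamily genes 10 were tested, 7 rose and 2 fell. Clstn2, a synaptic calsyntenin, rose by 6.46 ± 0.2 to 241 CPM and Ret, a receptor kinase with cadherin repeats, by 4.91 ± 0.25 to 5.27 CPM.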

How the data were processed

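Poly(A) RNA of the cortex of 1 animal per library was made into stranded libraries and read as 75 bp single reads, per the labels' protocols. The authors' deposited files hold raw counts per Ensembl gene, 1 file per library. The submitters' processing notes name HTSeq 0.5.3, STAR 2.5.2b, DESeq2 1.8.1, bcl2fastq 2.18 and SAMtools, without their roles. Which genome build and annotation release were used, and whether the counting used strand, is not given in the sources used here.

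Counts were fitted with edgeR 4.0.16 in R 4.3.3 (TMM factors, filterByExpr with a minimum count of 10, robust glmQLFit over all 12 libraries with age as 4 groups, glmQLFTest), with Benjamini-Hochberg adjustment over 17847 tested genes and a threshold of 0.05. Of 50600 identifiers, 50376 had a symbol. The standard error was taken as the size of the log2 fold change before edgeR's shrinkage by a prior count, over the square root of its F. The printed log2 fold changes include that shrinkage. CPM used TMM-scaled totals. Exon lengths were unions of GENCODE M21 exons (GRCm38), which may differ from the authors' annotation. The common biological coefficient of variation was 0.106, and same-age libraries correlated across genes at Pearson's r of 0.983 to 0.992. Replicate letters were not treated as pairs: deviations of same-letter libraries correlated at -0.3 to 0.28, over 0.1 in 4 of 18 pairs. The fitting steps were tested on simulated data.

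Alternatives were RLE, upper-quartile and library-size scaling, other filters, DESeq2 1.42.0, limma-voom (limma 3.58.1), a replicate block, fits of 2 ages alone, removal of the erythroid genes and leaving out each library. Leaving out E17 A, E13 C and E11 C together was added after seeing the data. Every listed cadherin could be named, and from each partner list the 2 largest rises and falls past the threshold in each comparison. VE-cadherin falls under that rule. The members, lists and tests were chosen with earlier results of these data known. A marker gene of the cortex list is not reported here.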

Additional observations from a re-analysis of the deposited data

How the results depend on the processing

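The number of cadherin genes called stayed within 1.5 times its value in each alternative run for it: 19 to 26 at E13 against E11, 30 to 34 at E17 against E13, 16 to 22 at P1 against E17, 30 to 33 at P1 against E11, and 35 to 38 across ages. Called in the same direction in every run that tested them were 17 of 25, 30 of 32, 15 of 19 and 28 of 32 genes, Fat2 among the 17 and the 28 although the filter at 1 CPM removed it. With the letters as a replicate block 24, 32, 19, 32 and 38 were called. The letters share only a name, and the block moved single calls near the threshold. DESeq2 called neither Cdh23 at E13 (adjusted p = 0.124), Fat2 at E17 against E13 (0.0685) nor Pcdh19 at P1 against E11 (0.0829). It added 6 calls: Cdh2 (0.0304) and Cdh6 (0.0177) at E13, Cdh1 (0.0459), Pcdh10 (0.0308) and Fat1 (0.0226) at P1 against E17, and Cdh4 (0.0145) at P1 against E11. Library size as the only scaling moved the median of all genes to -0.22 (E17 against E13) and -0.26 (P1 against E11), upper-quartile factors to -0.12 and -0.13, and the share of all calls that were rises from 49.8% to 39.8% at E17 with library size.

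Changes of sign touched results that had not passed the threshold, and the called Celsr2 at P1 against E11; the cause was not tested. With library size alone Celsr2 at P1 against E11 was -0.02, Cdh7 at E17 -0.13, Cdh23 at E17 0 and Cdh11 at P1 against E17 0, and with upper-quartile factors Cdh7 was -0.03. Celsr2 at P1 against E17 was 0.01 with RLE or upper-quartile factors or DESeq2 and 0 with the filter at 1 CPM. Cdh11 at P1 against E11 was 0 with RLE factors, without the filter and with DESeq2. Without E17 A, E13 C and E11 C, Cdh11 was 0.16 at P1 against E11 and -0.01 against E17, and at E13 Cdh9 was -0.04 and Cdh22 0.01. Leaving out 1 library gave, at E13, -0.05 to 0.26 for Cdh9, -0.29 to 0.21 for Cdh22 and -0.02 to 0.7 for Dchs2, and for Cdh7 at E17 -0.04 to 0.18. At P1 against E17 it gave -0.65 to 3.59 for Cdh1, -0.07 to 0.11 for Cdh11, -0.09 to 0.13 for Cdh13, -0.05 to 0.02 for Celsr2 and -0.17 to 0.29 for Fat2, and for Cdh11 at P1 against E11 -0.17 to 0.15. Depth limits Cdh1, Cdh3, Cdh19 and Fat2, whose reads at some ages were few.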
